A study of Homo sapiens with 6 samples.

Results

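Integrins are the cell-surface receptors, built from 1 alpha and 1 beta chain, that bind the proteins of the extracellular matrix. Laminins (trimers of an alpha, a beta and a gamma chain), collagen IV, perlecan and agrin form the basement membrane under epithelia, while fibrillar collagens, fibronectin, thrombospondins and tenascin-C form or modify the matrix between cells. Carcinoma cells of the pancreas grow in a dense matrix made largely by fibroblasts, and they themselves make laminins and carry laminin-binding integrins. The genes described here are those of the deposited table named as a collagen chain, an integrin chain, a laminin chain or a thrombospondin, plus FN1, LUM, SPARC, TNC, HSPG2 and AGRN. The rule found 91 of the 16197 genes in the table, and 38 of them had a mean of at least 1 FPKM (fragments scaled to gene length and library size) over the 6 libraries. The other 53 are listed as low and were not tested.

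The 6 RNA-seq libraries, 3 of cells given BRQ and 3 of cells given its solvent DMSO, carry the label Panc1, which is the name of a line derived from a carcinoma of the human pancreas. Since DHODH inhibition is in the title of the series, BRQ is taken to mean brequinar, an inhibitor of this mitochondrial enzyme that makes pyrimidines. Dose and exposure time are not given in the sources used here. All 6 libraries come from 1 line in the same culture medium with serum, and no label says that they were separate cultures, so p-values measure only how far these libraries differ from each other, possibly for technical reasons. The comparison asks how RNA levels differ in cells given BRQ.

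All 8 epithelial markers examined were above 1 FPKM on average, with means from 1.27 FPKM for KRT7 to 823 FPKM for KRT8. KRT8 ran from 814 to 877 FPKM in BRQ and from 782 to 822 FPKM in DMSO. EPCAM was higher in BRQ (99.5 to 111 FPKM, against 81.7 to 88.1 FPKM in DMSO). KRT19 was lower in BRQ (558 to 571 FPKM, against 690 to 732 FPKM in DMSO). The 8 markers summed to 2228 to 2374 FPKM in BRQ and to 2400 to 2528 FPKM in DMSO. The keratins stood beside VIM, a mesenchymal filament gene, at 880.0 ± 20.5 FPKM in BRQ and 1870.1 ± 28.2 FPKM in DMSO (SD, n = 3 each). CDKN2A, a gene this line is generally described as lacking, was at 32.5 ± 2.13 FPKM in BRQ and 46.3 ± 2.73 FPKM in DMSO, so the identity of the line remains unchecked. BRQ libraries 1 and 2 stood apart through haemoglobin RNA: 5 listed erythroid genes summed to 88.8, 46.0 and 1.85 FPKM in BRQ libraries 1, 2 and 3, against 0.634, 0.592 and 2.01 FPKM in the DMSO libraries. BRQ library 1 also carried less of long transcripts. The 10% of genes with the longest exons lay at a median of -0.07 (log2) from the BRQ mean in this library and in BRQ libraries 2 and 3 at 0.03 and 0.04. Counts are therefore also given without BRQ library 1, and without BRQ libraries 1 and 2.

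Fold changes are given as log2 of BRQ over DMSO with their SE, computed after adding 1 to each FPKM value, and adjusted p-values are those of limma over all 10689 genes of at least 1 FPKM. Of the 38 tested genes, 10 were higher in BRQ, 15 were lower and 13 did not pass an adjusted p of 0.05. Over all genes, 62.1% of tested genes passed, 36.9% as higher and 25.2% as lower, and the shares here were 65.8%, 26.3% and 39.5%. The changes were small, with a median absolute log2 fold change of 0.23 against 0.24 over all tested genes, and none reached 1. Each of 9 higher genes (AGRN, COL6A1, COL7A1, ITGA5, ITGAV, LAMA3, LAMB2, LAMB3 and LUM) and 7 lower genes (COL27A1, ITGA3, ITGA6, ITGB4, LAMB1, THBS1 and THBS3) kept its direction and its call in all alternatives in which it was tested. The BRQ and DMSO values did not overlap for 10 genes higher in BRQ and 17 lower, against 39.3% higher, 27.9% lower and 67.2% in all over the tested genes. Without BRQ library 1 the counts were 10 higher and 11 lower (35.5% and 24.4% over all genes). Without BRQ libraries 1 and 2 they were 9 and 10 (29.5% and 19.2%), and without DMSO library 3 they were 10 and 9 (33.8% and 22.7%). Median-of-ratios scaling gave 10 higher and 18 lower, and 31.2% higher and 30.8% lower over all genes.

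**Figure D1:**
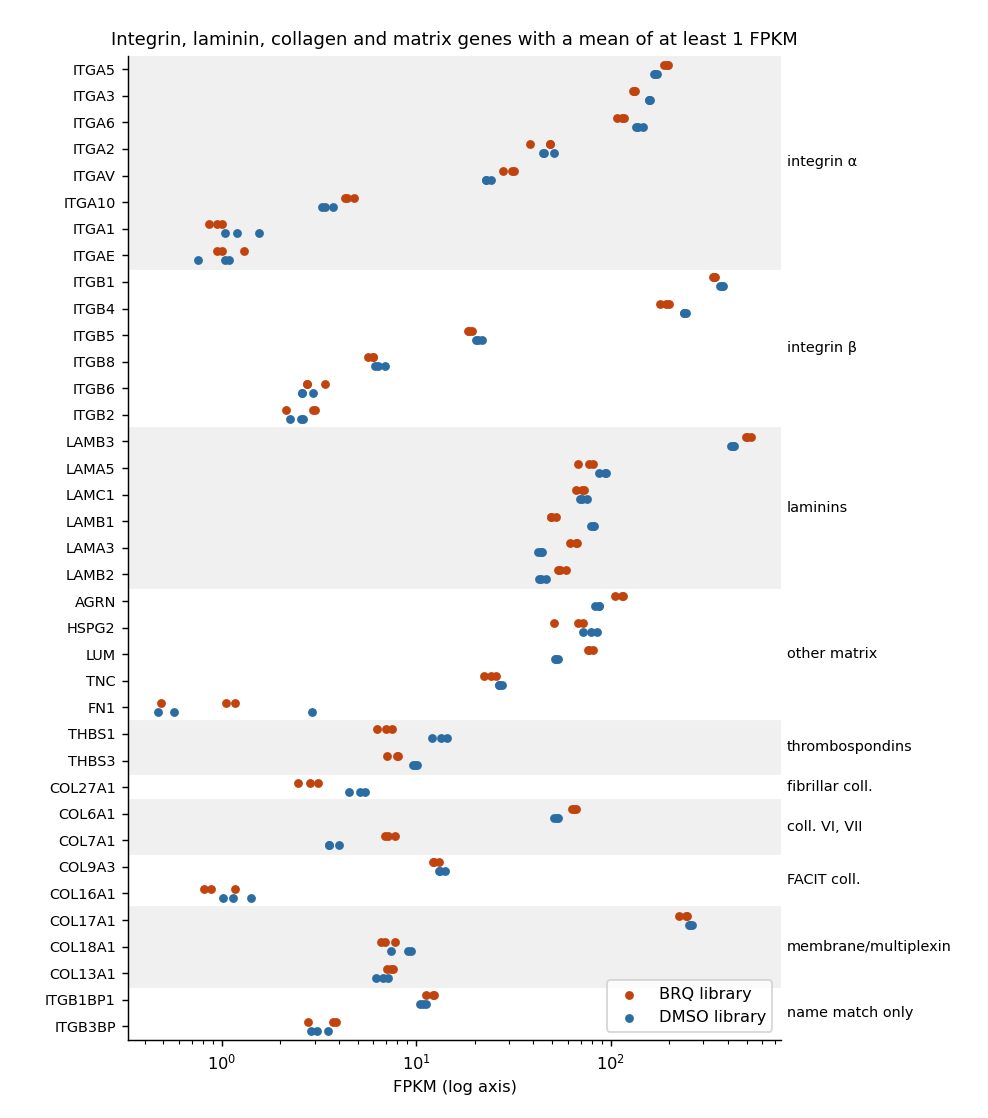
FPKM (log axis) of 37 of the 38 tested genes in each library, BRQ points above DMSO points in each row, grouped by kind of chain. LAMB3 and ITGB1 have the highest levels shown, and FN1 shows 1 DMSO library at 2.91 FPKM far from the other DMSO libraries.

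These genes are long, and length moved with the fold change across the table. Merged exons had a median of 7321.5 bases in the 38 genes and 5060 bases in all tested genes. Over all tested genes the median log2 fold change was 0.21 in the 10% with the shortest exons and -0.14 in the 10% with the longest, and 9 of the 38 genes lay among the longest. With each library's trend with exon length removed, 11 of the 38 were higher in BRQ and 10 lower. In the same setting 36.5% of all genes were higher and 25.5% lower. The 10 genes that rose as deposited were still higher, and 5 of the 15 that fell no longer passed.

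**Figure D2:**
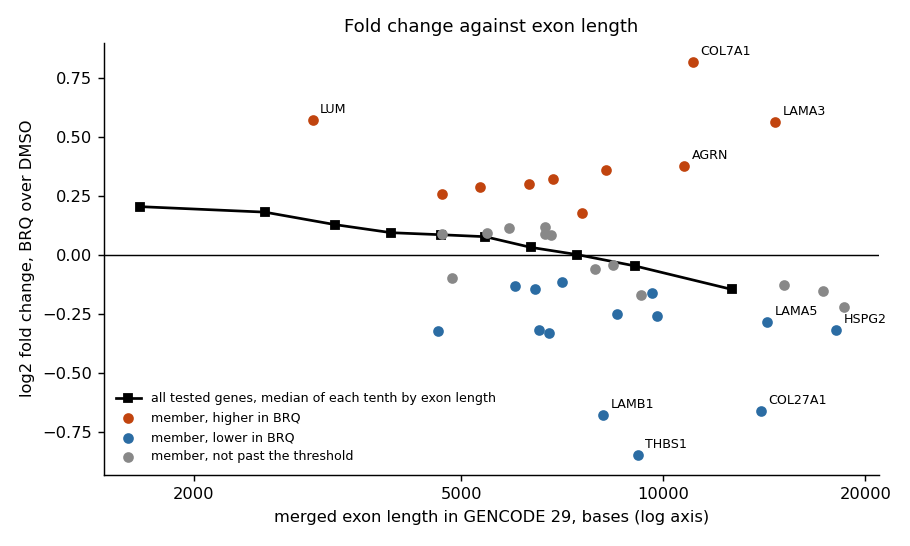
Log2 fold change (BRQ over DMSO) against merged exon length (log axis) for the 38 tested genes (points, 37 of them shown) and for the medians of all tested genes in 10 classes of equal size by length (black squares). The medians are 0.21 in the shortest class and -0.14 in the longest, and COL7A1, LAMA3 and AGRN stand above it at 11071, 14678 and 10758 bases.

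For 5 genes that changed in opposite directions, 3 higher in BRQ (LAMA3, COL7A1 and LAMB2) and 2 lower (LAMB1 and THBS1), the 250 bases before the annotated RNA start are shown so that the upstream DNA can be read beside the values. They are from RefSeq (GRCh38.p14), 5′ to 3′ on the gene's strand. Capitals mark matches on either strand to TGANTCA (bound by AP-1), CACCTG (an E-box bound by ZEB factors) and GGGCGG (the GC box bound by SP1).
LAMA3, chr18:23872770-23873019, plus strand: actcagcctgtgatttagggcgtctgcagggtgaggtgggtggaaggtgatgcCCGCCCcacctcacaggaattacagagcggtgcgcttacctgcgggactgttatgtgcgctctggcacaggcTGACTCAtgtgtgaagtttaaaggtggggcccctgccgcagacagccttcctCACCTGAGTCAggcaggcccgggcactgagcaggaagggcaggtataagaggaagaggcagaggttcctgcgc
COL7A1, chr3:48595330-48595579, minus strand: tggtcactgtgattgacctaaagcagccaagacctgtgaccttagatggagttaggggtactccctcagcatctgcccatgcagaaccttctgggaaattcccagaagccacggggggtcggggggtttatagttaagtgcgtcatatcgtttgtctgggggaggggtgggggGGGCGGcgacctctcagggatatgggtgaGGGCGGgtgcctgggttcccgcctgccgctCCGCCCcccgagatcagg
LAMB2, chr3:49133051-49133300, minus strand: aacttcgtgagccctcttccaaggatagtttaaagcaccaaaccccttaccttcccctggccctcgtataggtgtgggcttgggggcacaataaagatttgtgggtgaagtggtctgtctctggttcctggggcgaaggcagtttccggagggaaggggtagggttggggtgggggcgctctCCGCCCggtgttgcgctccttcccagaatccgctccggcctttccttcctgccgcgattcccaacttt
LAMB1, chr7:108003162-108003411, minus strand: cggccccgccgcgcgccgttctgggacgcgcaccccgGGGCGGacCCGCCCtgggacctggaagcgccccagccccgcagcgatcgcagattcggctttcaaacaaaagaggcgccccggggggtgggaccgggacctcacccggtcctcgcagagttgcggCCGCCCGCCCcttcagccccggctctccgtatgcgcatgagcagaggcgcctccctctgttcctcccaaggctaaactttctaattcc
THBS1, chr15:39580829-39581078, plus strand: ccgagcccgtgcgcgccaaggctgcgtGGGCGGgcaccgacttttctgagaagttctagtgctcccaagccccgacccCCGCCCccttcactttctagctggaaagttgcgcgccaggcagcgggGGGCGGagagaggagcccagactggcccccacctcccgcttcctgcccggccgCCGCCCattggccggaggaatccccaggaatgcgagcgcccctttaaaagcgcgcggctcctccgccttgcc

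The LAMA3 window held 2 matches to the AP-1 letters, starting 125 and 69 bases before the RNA start, and the second overlapped an E-box match that starts 73 bases before it. Of 35116 RefSeq windows of this length, 6.57% held the AP-1 letters, 17.5% the E-box letters and 42.6% the GC box letters. Each of the 5 windows held at least 1 GC box match, and the windows of COL7A1, LAMB2, LAMB1 and THBS1 held neither of the other motifs. Of the 38 tested genes, 30 matched an entry of the promoter table, and of these 2 had a window with the AP-1 letters, 8 with the E-box letters and 22 with the GC box letters. The LAMA3 start used by RefSeq here lies 183577 bases inside the gene as GENCODE 29 draws it, so the window belongs to the start of a shorter transcript of LAMA3. A match is a description of the letters and shows no binding.

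Of the laminin chains, 11 were in the table and 7 were tested: 3 rose, 3 fell and 1 did not pass. The shares were 42.9% higher and 42.9% lower, against 36.9% and 25.2% over all tested genes. LAMA3 and LAMB3 encode an alpha and a beta chain of the laminin that anchors epithelial cells through hemidesmosomes, and both rose. LAMA3 (chromosome 18, 23689443 to 23956222, GRCh38) had 61.9, 66.7 and 65.9 FPKM in BRQ libraries 1, 2 and 3, against 44.2, 42.4 and 44.0 FPKM in DMSO libraries 1, 2 and 3. All BRQ values lay above all DMSO values, and the log2 fold change was 0.56 ± 0.04 (limma adjusted p = 1.92e-06). LAMB3 (chromosome 1, 209614870 to 209652466) had 494, 526 and 502 FPKM in BRQ, against 424, 416 and 431 FPKM in DMSO, again without overlap (0.26 ± 0.04, limma adjusted p = 1.94e-04).

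The chains of the laminins found more widely in basement membranes moved in opposite directions. LAMB1 (chromosome 7, 107923799 to 108003255), a beta chain of widespread laminins, had 49.0, 52.4 and 49.2 FPKM in BRQ, against 78.9, 81.5 and 82.2 FPKM in DMSO. This fall of -0.68 ± 0.04 had the smallest adjusted p of the 38 genes (limma adjusted p = 4.75e-07). LAMB2 (chromosome 3, 49121114 to 49133118), which can take the same place in laminin trimers, had 53.8, 58.8 and 55.0 FPKM in BRQ, against 42.8, 43.9 and 46.6 FPKM in DMSO (0.32 ± 0.05, limma adjusted p = 2.21e-04). The order of both beta chains thus differed between the groups, with a LAMB2 to LAMB1 ratio, which does not depend on how libraries are scaled, of 1.10, 1.12 and 1.12 in the BRQ libraries and of 0.542, 0.538 and 0.567 in the DMSO libraries. LAMA5, an alpha chain of trimers with LAMB1 or LAMB2, had 67.6, 81.0 and 77.5 FPKM in BRQ and 87.4, 94.3 and 93.3 FPKM in DMSO (-0.28 ± 0.06, limma adjusted p = 0.00262). BRQ library 1 gave its lowest value, and the call was lost when the trend with exon length was removed (-0.08, limma adjusted p = 0.162; 4.14e-04 to 0.162 over all alternatives). LAMA3 and LAMA5 have merged exons of 14678 and 14291 bases, which need not be the lengths of the RNA measured. The LAMA3 to LAMA5 ratio was 0.863 ± 0.0473 in BRQ and 0.476 ± 0.0281 in DMSO (SD, n = 3 each). These and the other ratios were chosen after the values were seen. LAMC1, the common gamma chain, had 66.3, 72.7 and 71.4 FPKM in BRQ, against 69.6, 71.2 and 75.2 FPKM in DMSO, with overlapping values (-0.04 ± 0.05, limma adjusted p = 0.504). It was higher in BRQ once a trend with genomic span was removed (0.13, limma adjusted p = 0.0123; 0.0123 to 0.994 over all alternatives). LAMA1, LAMA2, LAMA4 and LAMC3 were low, and of these LAMA2 lay just under the limit at 0.986 FPKM while ITGAE lay just above it at 1.02 FPKM.

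**Figure D3:**
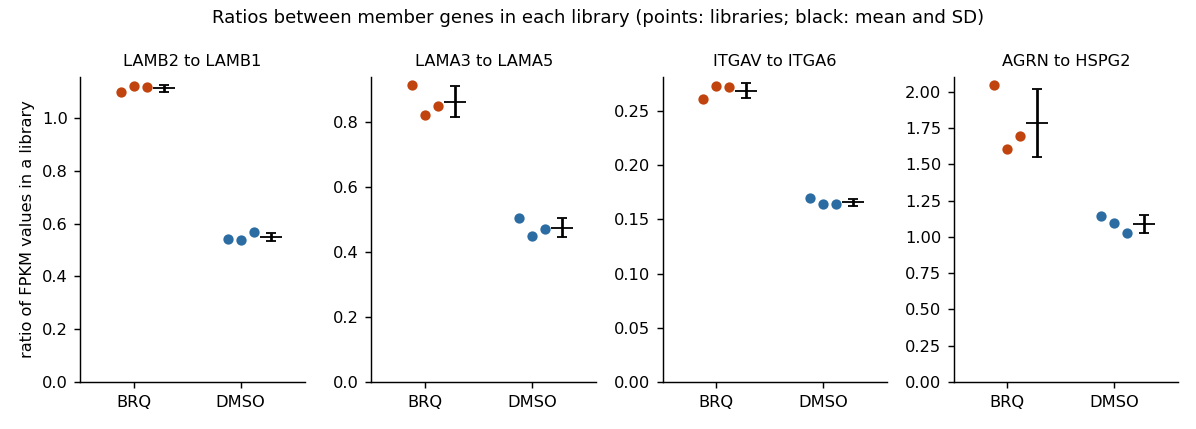
Ratios of FPKM values between pairs of member genes in each BRQ library (left) and each DMSO library (right), with the mean and SD in black. The 4 pairs shown, of 6 computed, were chosen after the values were seen as ones whose BRQ ratios lie above the DMSO ratios, with LAMB2 to LAMB1 at 1.11 ± 0.0132 in BRQ and 0.549 ± 0.0154 in DMSO.

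Among the large proteoglycans of the basement membrane, AGRN rose and HSPG2 fell. AGRN (agrin; chromosome 1, 1020123 to 1056118) had 105, 116 and 114 FPKM in BRQ, against 82.9, 86.7 and 87.2 FPKM in DMSO. The groups did not overlap, and the log2 fold change was 0.38 ± 0.05 (limma adjusted p = 4.27e-05). HSPG2 (perlecan) had 51.3, 72.1 and 67.5 FPKM in BRQ, against 72.4, 79.1 and 85.03 FPKM in DMSO, so the lowest DMSO value lay just above the highest BRQ value. Its change of -0.32 ± 0.11 passed (limma adjusted p = 0.0222), but not with the trends with exon length (-0.06, limma adjusted p = 0.510) or genomic span (-0.16, limma adjusted p = 0.167) removed, nor without DMSO library 2 (0.0526) or 3 (0.0745), nor without the filter on low values (0.113). Over all alternatives its adjusted p ran from 0.00208 to 0.510. Without BRQ library 1 its value was -0.17 (limma adjusted p = 0.0397). Of its exon bases, 11.7% are shared with LDLRAD2, and reads of the 2 genes could not be told apart if strand was not used. The collagen IV chains COL4A1, COL4A2, COL4A4, COL4A5 and COL4A6, the network of the basement membrane, were all low, with means of at most 0.0401 FPKM.

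Of the integrin alpha chains, 3 of 8 tested were higher in BRQ and 2 lower (37.5% and 25.0%), shares near the 36.9% and 25.2% over all tested genes. Of the 6 tested beta chains, 3 were lower and none higher. ITGA6 and ITGB4 encode the laminin-binding integrin of hemidesmosomes, and both fell. ITGA6 (chromosome 2, 172427354 to 172506282) had 107, 114 and 116 FPKM in BRQ, against 135, 139 and 147 FPKM in DMSO (-0.32 ± 0.05, limma adjusted p = 1.78e-04). ITGB4 (chromosome 17, 75721328 to 75757818) had 180.1, 199.6 and 193 FPKM in BRQ, against 237, 239 and 244 FPKM in DMSO (-0.33 ± 0.04, limma adjusted p = 8.26e-05). Neither gene overlapped between groups, and the ITGA6 to ITGB4 ratio was 0.589 ± 0.0172 in BRQ and 0.584 ± 0.0178 in DMSO, ranges that overlap. The ITGB4 to ITGB1 ratio was lower in BRQ, at 0.562 ± 0.0248, against 0.645 ± 0.0121 in DMSO (SD, n = 3 each). ITGA3, which pairs with beta 1 as another laminin receptor, fell to 132 ± 1.78 FPKM in BRQ, against 158 ± 0.749 FPKM in DMSO (-0.26 ± 0.04, limma adjusted p = 1.04e-04).

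The alpha chains that rose were ITGAV, ITGA5 and ITGA10. ITGAV, the alpha chain of receptors for RGD-containing matrix proteins such as vitronectin, had 27.9, 31.1 and 31.7 FPKM in BRQ, against 22.9, 22.8 and 24.2 FPKM in DMSO (0.36 ± 0.06, limma adjusted p = 2.44e-04). ITGA5, the fibronectin receptor chain and the most abundant alpha chain, was at 193 ± 4.86 FPKM in BRQ and 170.3 ± 3.26 FPKM in DMSO (0.18 ± 0.04, limma adjusted p = 0.00187). ITGA10, a collagen receptor chain, was at 4.51 ± 0.253 FPKM in BRQ and 3.47 ± 0.239 FPKM in DMSO (0.30 ± 0.08, limma adjusted p = 0.00479), and its call was lost without BRQ libraries 1 and 2 (limma adjusted p = 0.0635; 0.0028 to 0.0635 over all alternatives). In the BRQ libraries ITGAV stood at 0.269 ± 0.00691 of ITGA6, against 0.166 ± 0.00326 in DMSO. ITGA2, a collagen and laminin receptor chain, ranged from 38.3 to 48.9 FPKM in BRQ and from 44.9 to 50.9 FPKM in DMSO and did not pass (limma adjusted p = 0.572). ITGA1 and ITGAE, near 1 FPKM, did not pass either (limma adjusted p = 0.0783 and 0.477). ITGA1 passed as lower in 3 of 16 alternatives, and its direction turned in 2.

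ITGB1, the beta chain shared by most matrix receptors, had 335, 340.2 and 344 FPKM in BRQ, against 375, 363 and 378 FPKM in DMSO. The fall was small (-0.13 ± 0.04, limma adjusted p = 0.00921). It was lost without BRQ libraries 1 and 2 (limma adjusted p = 0.077), and after removal of the trend with genomic span the value was 0.01 (limma adjusted p = 0.758; 6.64e-04 to 0.758 over all alternatives). ITGB5, a partner of ITGAV, was at 18.8 ± 0.434 FPKM in BRQ and 20.8 ± 0.775 FPKM in DMSO (-0.14 ± 0.05, limma adjusted p = 0.0296), and its value turned to 0.06 in the same setting (limma adjusted p = 0.313; 0.00496 to 0.313 over all alternatives). The ITGB5 call was also lost without BRQ library 1 (0.0510) or 3 (0.0833) and without DMSO library 1 (0.0616) or 3 (0.118). ITGB6 (2.95 ± 0.379 FPKM in BRQ and 2.71 ± 0.214 FPKM in DMSO) and ITGB8 (5.85 ± 0.194 FPKM in BRQ and 6.47 ± 0.393 FPKM in DMSO), which can also pair with ITGAV, did not pass. Neither did ITGB2, the beta chain of leukocyte integrins (2.70 ± 0.494 FPKM in BRQ and 2.47 ± 0.195 FPKM in DMSO). ITGB8 passed as lower in 2 of 17 alternatives, and its direction turned in 1. ITGB6 shares 20.6% of its exon bases with an overlapping transcript. ITGB3 and ITGB7 were low, as were 10 alpha chains, among them the leukocyte chains ITGAL, ITGAM and ITGAX. In bulk RNA, fewer cells carrying a transcript and less of it per cell cannot be told apart. ITGB1BP1, whose protein binds the beta 1 tail, and ITGB3BP, a centromere protein, match the name pattern without being integrin chains, and neither passed (limma adjusted p = 0.104 and 0.455). Each passed as higher in 1 alternative (limma adjusted p = 0.0498 and 0.0287). ITGB1BP1 shares 33.1% of its exon bases with ASAP2.

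**Figure D4:**
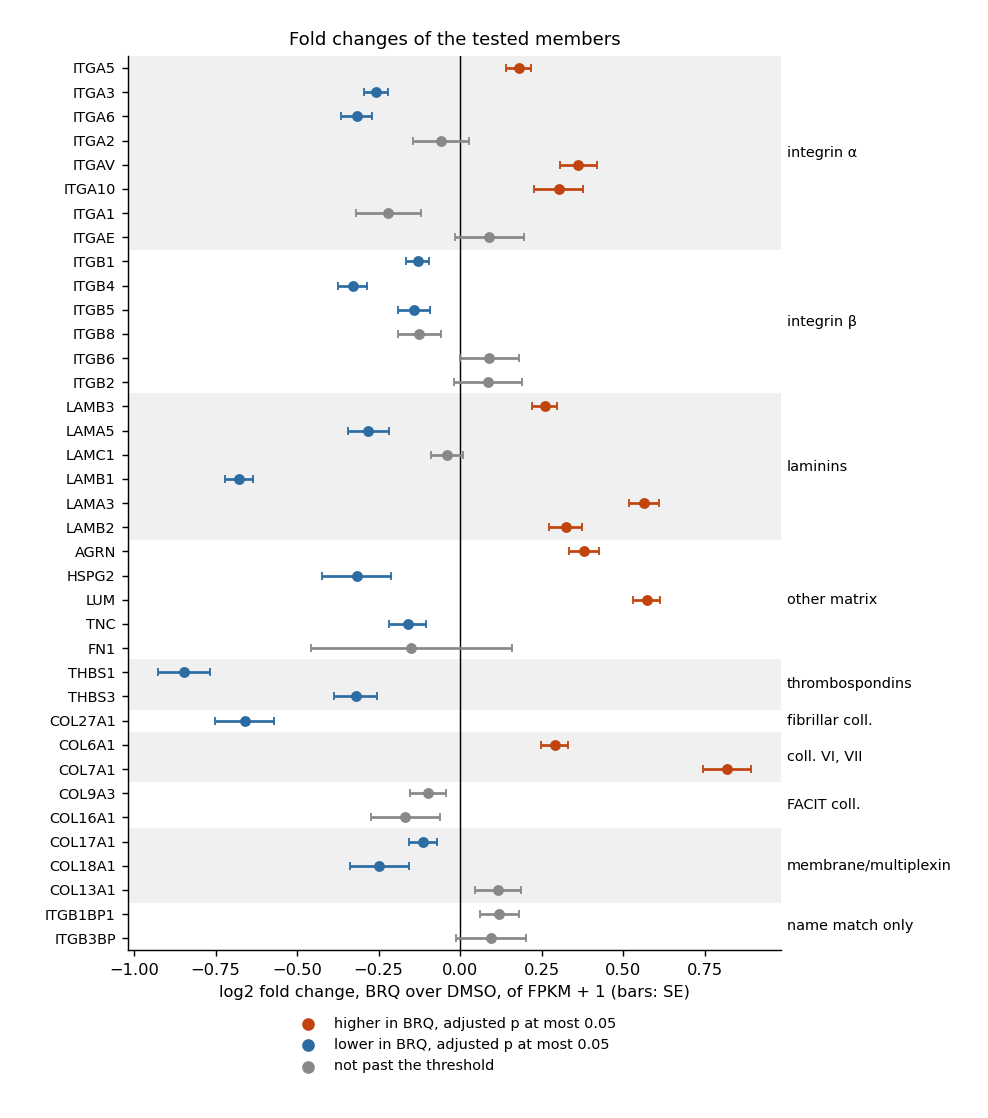
Log2 fold changes (BRQ over DMSO, FPKM + 1) of 37 of the 38 tested genes with their SE, coloured by call. The highest is COL7A1 at 0.82 and the lowest is THBS1 at -0.85, and each beta integrin that passed lies left of 0.

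Collagens were mostly low: 40 collagen genes were in the table and 8 were tested, of which 2 rose, 3 fell and 3 did not pass. Among all tested genes, 36.9% rose and 25.2% fell. COL7A1 (chromosome 3, 48564073 to 48595267), the anchoring fibril collagen that ties the epidermal basement membrane to the dermis, had the largest rise of the 38 genes. It had 7.15, 7.79 and 6.93 FPKM in BRQ, against 3.55, 4.02 and 3.54 FPKM in DMSO (0.82 ± 0.07, limma adjusted p = 4.75e-06), and the BRQ mean was 1.97 times the DMSO mean. COL6A1, a chain of microfibrillar collagen VI, had 64.6 ± 1.84 FPKM in BRQ and 52.6 ± 1.20 FPKM in DMSO (0.29 ± 0.04, limma adjusted p = 1.41e-04). Its partner chains COL6A2 and COL6A3 were low, with means of 0.0823 and 0.0477 FPKM. COL27A1 (chromosome 9, 114155560 to 114312511), a fibrillar collagen of cartilage, was the sole fibrillar collagen tested. It had 2.46, 3.12 and 2.85 FPKM in BRQ, against 4.49, 5.16 and 5.42 FPKM in DMSO (-0.66 ± 0.09, limma adjusted p = 9.58e-05).

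COL17A1, the transmembrane collagen of hemidesmosomes, was among the most abundant of the 38 genes, at 224, 246 and 243 FPKM in BRQ and 255, 254 and 262 FPKM in DMSO. Its change of -0.11 ± 0.04 passed narrowly (limma adjusted p = 0.0418) and was lost in 7 of 17 alternatives. These included the fit without BRQ library 1 (-0.07, limma adjusted p = 0.0860) and those without any 1 DMSO library. The limma adjusted p of COL17A1 ran from 0.00472 to 0.204 over all alternatives. COL18A1, the source of endostatin, was at 7.08 ± 0.632 FPKM in BRQ and 8.61 ± 1.03 FPKM in DMSO. It shares 16.4% of its exon bases with SLC19A1 on the other strand. Its values overlapped, and its call (-0.25 ± 0.09, limma adjusted p = 0.0318) was lost in 7 of 17 alternatives. These included the fits without BRQ library 1 or 3 or DMSO library 2 or 3. The limma adjusted p of COL18A1 ran from 0.00603 to 0.346 over all alternatives. COL13A1, COL9A3 and COL16A1 did not pass, at log2 fold changes of 0.12, -0.10 and -0.17. COL9A3 passed as lower in 4 of 17 alternatives, among them median-of-ratios scaling (limma adjusted p = 0.0275). COL13A1 passed as higher with the genomic span trend removed (0.35, limma adjusted p = 6.62e-04).

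Both tested thrombospondins fell, as did 25.2% of all tested genes. THBS1 (chromosome 15, 39581079 to 39599466), a matricellular protein that activates latent TGF-beta, had the largest fall of the 38 genes. It had 7.005, 7.53 and 6.30 FPKM in BRQ, against 12.05, 13.4 and 14.4 FPKM in DMSO, and the change was -0.85 ± 0.08 (limma adjusted p = 6.22e-06). THBS3 had 8.03, 7.06 and 7.92 FPKM in BRQ, against 9.61, 10.1 and 9.79 FPKM in DMSO (-0.32 ± 0.06, limma adjusted p = 0.00136). Of THBS3's exon bases, 25.4% are shared with other genes, mostly an antisense transcript. THBS2 and THBS4 were low. TNC, the matrix glycoprotein tenascin-C, had 24.03 ± 1.66 FPKM in BRQ and 26.9 ± 0.601 FPKM in DMSO. Its call (-0.16 ± 0.06, limma adjusted p = 0.0269) was lost in 8 of 17 alternatives. Among them were the fits without BRQ library 1 or 3 or DMSO library 2 or 3. The limma adjusted p of TNC ran from 0.00565 to 0.595 over all alternatives.

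LUM encodes lumican, a small leucine-rich proteoglycan that binds collagen fibrils and is best known from fibroblasts and the cornea. LUM (chromosome 12, 91102629 to 91111831) had 81.5, 77.4 and 76.8 FPKM in BRQ, against 51.6, 52.4 and 53.4 FPKM in DMSO. The groups lay far apart relative to their spread (0.57 ± 0.04, limma adjusted p = 1.05e-06). Of the other listed fibroblast markers, ACTA2 (smooth muscle actin) had the highest mean at 1.22 FPKM, with 0.724 to 1.21 FPKM in BRQ and 1.07 to 2.27 FPKM in DMSO. TAGLN, an actin-binding protein, had 1.07 to 1.26 FPKM in BRQ and 0.514 to 0.720 FPKM in DMSO, and COL1A1 reached 1.37 FPKM in 1 library. DCN, which encodes the related proteoglycan decorin, was at most 0.0712 FPKM in any library, PDGFRA at most 0.0365 FPKM, and THY1 was listed at 0 in 5 of 6 libraries. The 11 fibroblast markers summed to 79.9 to 86.4 FPKM in BRQ and to 54.2 to 58.9 FPKM in DMSO, nearly all of it LUM.

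FN1 (fibronectin, a main ligand of ITGA5 with ITGB1) was near the limit of testing, in contrast to its receptor chains. It had 1.16, 1.05 and 0.487 FPKM in BRQ, against 0.469, 0.568 and 2.91 FPKM in DMSO, and the difference did not pass (-0.15 ± 0.31, limma adjusted p = 0.686). Without DMSO library 3 the value was 0.31 (limma adjusted p = 0.112; 0.112 to 0.967 over all alternatives), and without BRQ library 3 it was 0.018. The fibrillar collagens COL1A1, COL1A2 and COL3A1, all under 1 FPKM on average, were highest in BRQ library 1 and DMSO library 3. COL1A2 had 0.772, 0.0402 and 0.0114 FPKM in BRQ, against 0.00605, 0 and 0.545 FPKM in DMSO. COL1A1 had 1.30, 0.467 and 0.598 FPKM in BRQ, against 0.295, 0.650 and 1.37 FPKM in DMSO. DCN was also highest in these libraries, at 0.0712 FPKM in BRQ library 1 and 0.0475 FPKM in DMSO library 3, and the source of this RNA was not tested.

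**Figure D5:**
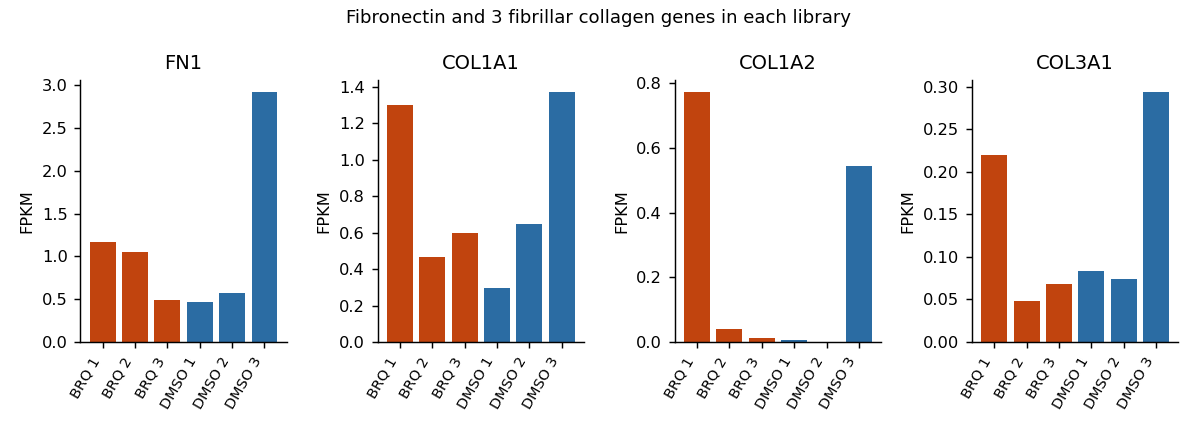
FPKM of FN1, COL1A1, COL1A2 and COL3A1 in each library, BRQ on the left and DMSO on the right, with separate axes. COL1A2 stands at 0.772 FPKM in BRQ library 1 and 0.545 FPKM in DMSO library 3, and at most 0.0402 FPKM in the other libraries.

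Genes that act with these proteins were counted from 5 lists. In the complex that links integrin tails to actin, 20 of 33 tested genes fell and 6 rose (3 rose under each of the 3 other scalings), with a median log2 fold change of -0.27 against 0.06 over all tested genes. The shares were 60.6% lower and 18.2% higher, against 25.2% and 36.9% over all tested genes. Under median-of-ratios scaling 23 of the list fell and 3 rose, and 30.8% of all tested genes were lower and 31.2% higher. Removing the genomic span trend left 16 lower, 13 of them among the 20, and 4 higher. Removing the exon length trend left 17 lower, 15 of them among the 20, and 7 higher. In that last setting 25.5% of all genes were lower and 36.5% higher. The genes named from this list all fell. FERMT1, the epithelial kindlin that activates integrins, was at 189.9 ± 11.4 FPKM in BRQ and 318 ± 6.88 FPKM in DMSO (limma adjusted p = 4.73e-07). PTK2, focal adhesion kinase, was at 28.9 ± 0.672 FPKM in BRQ and 40.3 ± 0.910 FPKM in DMSO (limma adjusted p = 5.96e-06). DOCK1, which activates RAC, was at 3.38 ± 0.0800 FPKM in BRQ and 5.98 ± 0.127 FPKM in DMSO (limma adjusted p = 7.94e-06). Of the pathway names deposited with the table, focal adhesion held 98 tested genes outside the 38, of which 45 fell and 21 rose (45.9% and 21.4%, against 25.2% and 36.9% over all tested genes). Genes of the list above were not taken out of this pathway, so it is not a separate set. It was not counted with the length trends removed.

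Of the enzymes and chaperones of collagen maturation, 13 of 22 tested genes rose and 5 fell (59.1% and 22.7%, against 36.9% and 25.2% over all tested genes). P4HA1, which hydroxylates collagen prolines, was at 42.9 ± 2.19 FPKM in BRQ and 23.2 ± 0.833 FPKM in DMSO (limma adjusted p = 3.50e-07). COLGALT1, a collagen galactosyltransferase, was at 53.9 ± 0.928 FPKM in BRQ and 36.8 ± 1.04 FPKM in DMSO, and the procollagen protease BMP1 at 13.1 ± 0.302 FPKM in BRQ and 7.32 ± 0.494 FPKM in DMSO. The collagen chaperone SERPINH1 fell to 115 ± 3.55 FPKM in BRQ, against 156 ± 1.79 FPKM in DMSO (limma adjusted p = 3.91e-06). These genes were measured beside fibrillar collagens that were nearly all low.

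Other receptors for matrix were mixed, with 5 of 13 tested genes higher and 4 lower (38.5% and 30.8%), near the 36.9% and 25.2% over all tested genes. The collagen receptor kinase DDR1 rose to 50.9 ± 0.946 FPKM in BRQ, against 36.0 ± 0.134 FPKM in DMSO (limma adjusted p = 2.74e-06), and the heparan sulfate proteoglycans GPC1 and SDC3 also rose. SDC1, another syndecan, fell to 121 ± 3.998 FPKM in BRQ, against 165 ± 1.29 FPKM in DMSO (limma adjusted p = 3.61e-06). Among matrix proteases and their inhibitors, 8 of 21 rose and 7 fell (38.1% and 33.3%), which is also near those shares. TIMP1, an inhibitor of metalloproteinases, was at 489 ± 18.9 FPKM in BRQ and 343 ± 6.48 FPKM in DMSO (limma adjusted p = 2.18e-06), and the cathepsin CTSL also rose. TIMP4 fell to 28.97 ± 1.03 FPKM in BRQ, against 37.0 ± 0.822 FPKM in DMSO (limma adjusted p = 8.56e-05). Of 17 other matrix and matricellular genes tested, 8 fell and 1 rose (47.1% and 5.88%, against 25.2% and 36.9% over all tested genes). With the exon length trend removed, 5 fell, 4 of them among these 8, and 2 rose (25.5% and 36.5% over all genes). The 4 with the smallest adjusted p were LTBP2, LTBP4, CCN1 and LTBP3, all lower. LTBP proteins hold latent TGF-beta in the matrix, and LTBP2, a relative of these in elastic fibres, was at 4.26 ± 0.283 FPKM in BRQ and 8.92 ± 0.208 FPKM in DMSO (limma adjusted p = 1.07e-06).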

How the data were processed

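RNA-seq of 3 BRQ and 3 DMSO libraries was analysed from 1 table of FPKM values per gene deposited by the authors. Per the submitters' processing notes, fastp, HTSeq and hg38 were used. The aligner, the annotation, the use of strand and the gene lengths behind FPKM are not given in the sources used here. No counts were used, so depth is unknown, no counting interval is given, and no count test was run. Values were tested as log2(FPKM + 1) with limma 3.58.1 in R 4.3.3 on the 10689 genes whose 6-library mean reached 1 FPKM, with Benjamini-Hochberg adjustment over all of them and a threshold of 0.05. The test was tried on simulated data in which 200 of 10689 genes were changed. It recovered 78% of 1.5-fold and 97% of 2-fold changes, and 2.78% of its calls were false. The simulation held no trend with length and a far smaller share of changed genes than was called here. With 3 libraries against 3, an exact test of a single value cannot go below a two-sided p of 0.1, so none is given. Gene positions and exon lengths are from GENCODE 29 (GRCh38), and promoter windows from RefSeq (GRCh38.p14). The members and gene lists were chosen with earlier results of these data known. Tested members are described individually, and from each list up to 4 genes with the smallest adjusted p. Some genes that these rules pick are not reported here, though the counts include them. Alternatives changed the pseudocount, filter, scaling, variance estimate, block, length trends and libraries.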

Additional observations from a re-analysis of the deposited data

How the results depend on the processing

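Of the 38 tested genes, 18 kept their direction and their side of the threshold in all of the 17 alternatives that could be fitted for them; genes under 5 FPKM had no value with that filter. Leaving out 1 library gave from 9 to 15 lower genes, against 15 with all libraries. Over the whole table the genes past the threshold in either direction then ran from 6037 to 6404, against 6638. The log2 fold change turned with the genomic span trend removed for ITGA1 (0.025), ITGA2 (0.083), ITGB1 (0.012), ITGB5 (0.059) and LAMC1 (0.13). It turned with the exon length trend removed, a setting added after the data were seen, for FN1 (0.099), ITGA1 (0.044), ITGA2 (0.010), ITGB8 (0.095) and LAMC1 (0.045). Without BRQ library 1 it turned for ITGA2 (0.055) and LAMC1 (3.94e-04), and for FN1 without BRQ library 3 (0.018) or DMSO library 3 (0.31). With 1 library left out, values ran from -0.40 to 0.31 for FN1, from -0.12 to 0.055 for ITGA2 and from -0.065 to 3.94e-04 for LAMC1. Without BRQ libraries 1 and 2, which leaves 1 BRQ library assumed to vary like the DMSO libraries, it turned for ITGA2 (0.051), ITGAE (-0.0047) and ITGB2 (-0.15). The causes were not tested. Deviations from the group means correlated at 0.144, 0.00804 and 0.0584 between same-numbered libraries. Between differently numbered libraries the correlations ran from -0.137 to 0.105, so these values do not settle whether the numbers pair the libraries. With the replicate block 10 of the 38 genes were higher and 15 lower, and 6799 genes passed over the whole table. Of the lists, proteases and inhibitors had 5 higher genes, against 8, with the span trend removed or without BRQ libraries 1 and 2, and 4 lower, against 7, at 5 FPKM or more. Other matrix genes had 5 lower, against 8, at 5 FPKM or more, without BRQ libraries 1 and 2 and with the exon length trend removed, and from 2 to 4 higher, against 1, in 4 settings. Over the whole table, 6638 genes passed as deposited and 5152 at 5 FPKM or more, where fewer genes are tested. With the span trend removed 6349 passed, and with the exon length trend removed 6610. Depth is unknown, so what it limits cannot be stated.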
